A study of Homo sapiens with 15 samples.

Results

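The genes described here code for proteins of the basement membrane, the thin sheet of matrix under epithelial cells: the laminin chains LAMA3, LAMA5, LAMB1, LAMB2, LAMB3 and LAMC1, the nidogens NID1 and NID2, and perlecan (HSPG2). The 9 genes were chosen by name, with earlier results of these data known. Each was matched to the probe sets that the platform annotations of both value tables assign to 1 gene only. In all, 8 of the 9 had such a probe set, out of 12149 genes with one, and together they had 12 probe sets. LAMA3 had none in these annotations and is not analysed here. NID2 was among the dimmest 25% of genes, which were left out of the tests, so 7 of the listed genes were among the 9111 genes tested.

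Expression was measured in total RNA of the human HMT3522 breast epithelial series, in 15 samples grown in a three-dimensional, laminin-rich extracellular matrix (3D lrECM). S1 is the nonmalignant line of the series and had 3 samples, and T4 is its malignant counterpart, also with 3 samples. The 9 remaining samples, called T4R here, were T4 cells that the labels name reverted, with 1 sample for each agent. GM6001 inhibits metalloproteinases. A further sample carries only the names of its targets, MMPs and ADAMs, proteases that cut matrix and shed growth factors, and is taken here as one treated with their inhibitor. TNF protease inhibitor–2 acts on the protease that releases TNF. PD98059 blocks MEK, the kinase above ERK, and LY294002 blocks PI3K. Tyrphostin AG 1478, a kinase inhibitor, and mAb225, an antibody, both act on EGFR. AIIB2 is an antibody that blocks β1-integrin, and dominant-negative Rap1 blocks the small GTPase Rap1. Doses and times of the agents were not given in the sources used here, nor which samples received the vehicle control that the study's design mentions. All groups were cultured in a matrix that itself contains laminin protein, which the arrays do not measure. Both S1 and T4 are single cell lines, and the labels are silent on whether the samples within a group were separate cultures. The p-values below therefore cover the spread among these samples alone, which may be technical within S1 and T4. Within T4R it is the spread among 9 different agents, which are not replicates of 1 treatment. The fit shares 1 estimate of the spread across the groups, so agent differences enter every p-value, that of T4 against S1 included.

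Each laminin is a trimer of an α, a β and a γ chain. Laminin-332, which contains the products of LAMA3 and LAMB3, anchors epithelial cells through α6β4 integrin in hemidesmosomes and is also a substrate on which epithelial cells migrate. The trimers that build the continuous sheet of the epithelial basement membrane contain other chains, among them the LAMA5 product with that of LAMB1 or LAMB2 and that of LAMC1. Nidogens bind the laminin γ1 chain and link it to collagen IV, and perlecan, a large heparan sulfate proteoglycan, also bridges the layers. In the normal breast, laminins tell epithelial cells where their basal side is, and growth in a laminin-rich gel lets S1 cells form polarised acini.

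The values were deposited in separate tables for 2 array types. Of the treated samples, those with GM6001, LY294002 and the inhibitor of MMPs and ADAMs were in the first, beside S1 samples 1 and 2 and all of T4. The second held S1 sample 3 and the other 6 agents. The median value per sample was 7.33 to 7.40 (log2). Sample 3 of each untreated line stood apart from the others: counting tested genes that differed at least 2-fold, S1 sample 3 had 553 and 648 such genes against its companions, which had 16 between them. T4 sample 3 had 356 and 426, against 6 between T4 samples 1 and 2. S1 sample 3 is alone of its line in the second table, whereas T4 sample 3 shares the first table with the other T4 samples, so no table term can account for its distance. The fit had the table as a block, and the contrast of T4 with the 6 agents of the second table runs through the other samples, since that table has no T4 sample. The fitted difference between tables passed the test for 4 of the 7 genes, against 17.9% of all genes: it was 1.00 for LAMA5, 0.87 for HSPG2, 0.81 for LAMB3 and 0.81 for LAMB2 (second over first, log2). This term compares S1 sample 3 with S1 samples 1 and 2, and the agents of one table with those of the other. Array type, agent and sample cannot be told apart in it. For LAMB2, S1 had 9.32 in the second table and a mean of 8.95 in the first, and T4R had means of 9.44 and 8.48. Of 10 epithelial markers 9 were measured, and their mean level lay between 9.89 and 10.43 in every sample. Within that list the basal keratins KRT5 and KRT14 were bright, at means of 13.6 and 14.1, while KRT7 (6.93) and KRT19 (6.67) lay below the filter's limit of 6.97. Group means in S1 and T4 were 10.52 and 9.90 for CDH1, 7.96 and 7.49 for EPCAM and 10.71 and 11.57 for KRT18, and the part of such shifts in the results below was not tested. The mean level of the markers of fibroblasts and smooth muscle lay between 7.16 and 7.57, of endothelial cells between 6.85 and 7.10, of leukocytes between 6.94 and 7.23 and of adipocytes between 6.76 and 6.95. Single genes of these lists could be brighter and differ by group. COL1A1 had means of 8.05 in S1, 8.94 in T4 and 9.72 in T4R, and CD14 had 6.95, 7.99 and 7.655. In such bulk samples, fewer cells of a kind and less RNA per cell cannot be told apart.

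In T4, LAMB3 and HSPG2 were higher than in S1, and LAMB1, LAMC1 and LAMA5 were lower. LAMB3 was lower than in T4 with each of the 9 agents, whereas LAMB1 lay below every S1 sample with each of them. By the limma test with Benjamini-Hochberg adjustment over all genes, 2 of the 7 genes passed as higher in T4 than in S1 and 3 as lower. Over all genes tested, 26.9% passed, 14.6% as higher and 12.3% as lower. Since the genes were chosen with earlier results of these data known, the shares are no test of the set. The median difference of the 7 genes was -0.34 on the log2 scale, against 0.01 for all genes. The plot of the 7 genes by group shows the values behind these counts.

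**Figure D1:**
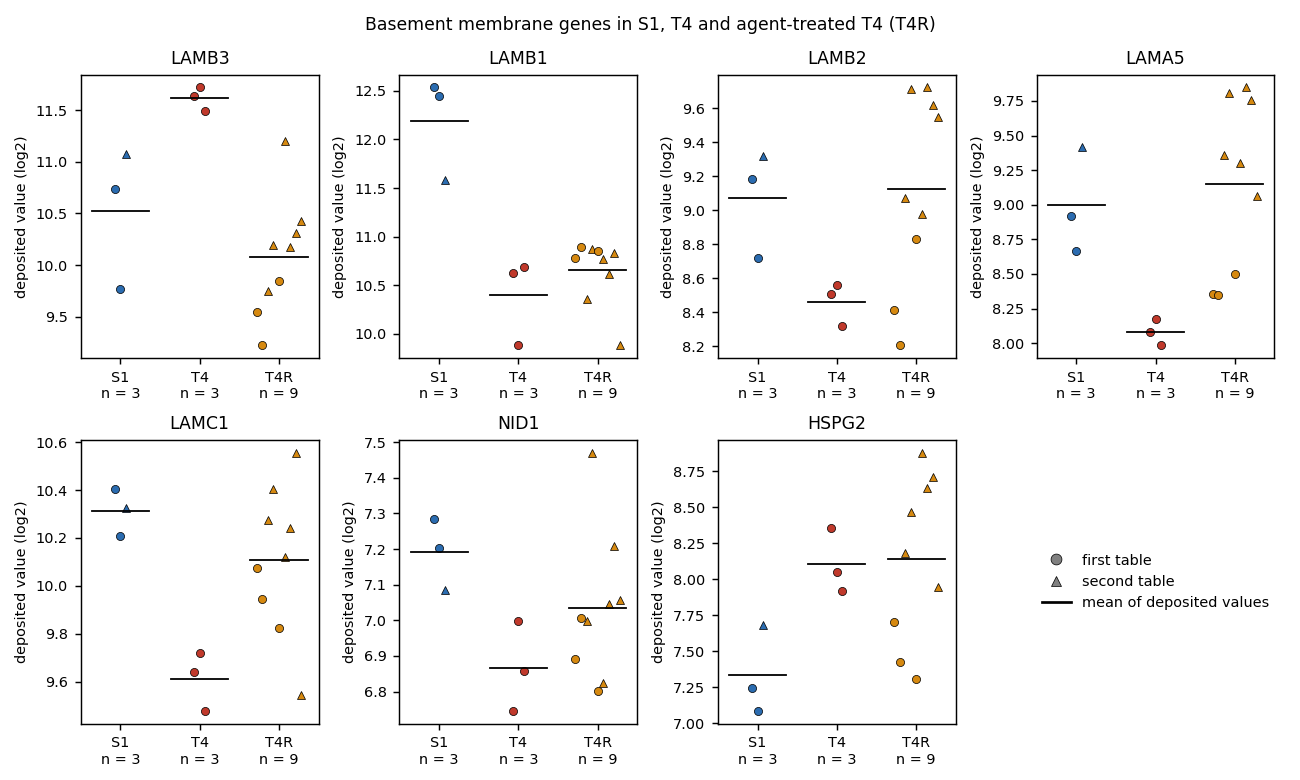
Deposited log2 value of each tested gene (vertical axis, own scale in each panel) in S1, T4 and T4R; circles are samples of the first table, triangles of the second, and bars are group means. LAMB3 is highest in T4, LAMB1 is highest in S1, and the T4R samples of LAMA5, LAMB2 and HSPG2 separate by table.

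LAMB3 codes for the β3 chain of laminin-332 and is the chain of that trimer measured here. The deposited log2 value of LAMB3 was 10.74, 9.77 and 11.08 in S1 samples 1 to 3, and 11.64, 11.72 and 11.50 in T4 samples 1 to 3. All T4 samples lay above all S1 samples, and the spread within T4 was small (mean 11.62 ± 0.11, SD, n = 3) beside that within S1 (10.53 ± 0.68, SD, n = 3). The fitted difference was 1.36 ± 0.31 (log2, SE), or 2.57-fold higher in T4, with an adjusted p of 0.00575. The call was lost when the table was left out of the fit (1.09, adjusted p = 0.0673), also after quantile normalization across tables (1.05, adjusted p = 0.0884). Replacing the table block by a block for the replicate number gave 1.09 as well (adjusted p = 0.0671).

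Every treated sample had a lower LAMB3 value than every T4 sample. In the first table LAMB3 was 9.54 with GM6001, 9.22 with the inhibitor of MMPs and ADAMs and 9.85 with LY294002. The second table gave 9.75 with TNF protease inhibitor–2, 10.20 with PD98059, 11.20 with dominant-negative Rap1, 10.17 with Tyrphostin AG 1478, 10.31 with mAb225 and 10.43 with AIIB2. Dominant-negative Rap1 was the highest of the 9 and the nearest to T4, as deposited and after the table term was removed. The fitted difference between T4R and T4 was -2.09 ± 0.29 (log2, SE), that is 4.24-fold lower in T4R, with an adjusted p of 0.000461. It was of like size within the first table alone, which needs no adjustment for array type (-2.08), and without both samples numbered 3 (-2.14, adjusted p = 0.00256). LAMB3 was the only one of the 7 genes that passed in this comparison, where 14.9% of all genes passed, 6.46% as higher and 8.44% as lower. The gene passed this test, as lower in T4R, in each of the 27 alternative fits. This comparison and that of T4 with S1 use the same T4 samples, so the opposite signs of LAMB3 are not independent.

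Against S1, LAMB3 in T4R was lower by fit, at -0.72 ± 0.26 (log2, SE), and did not pass (adjusted p = 0.0604). Leaving out the dominant-negative Rap1 sample gave -0.79 with an adjusted p of 0.0105, and leaving out S1 sample 2, the lowest of S1, gave -0.95 with an adjusted p of 0.0299. Without S1 sample 1 the difference was -0.5 (adjusted p = 0.248), and without the table block it was -0.45 (adjusted p = 0.387). It passed in 4 of the 27 alternative fits and kept its sign in all 27. After removal of the table term, 8 of the 9 agents lay below the S1 mean, and dominant-negative Rap1 lay above it by 0.13. In the second table, 5 of the 6 agents were below S1 sample 3.

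**Figure D2:**
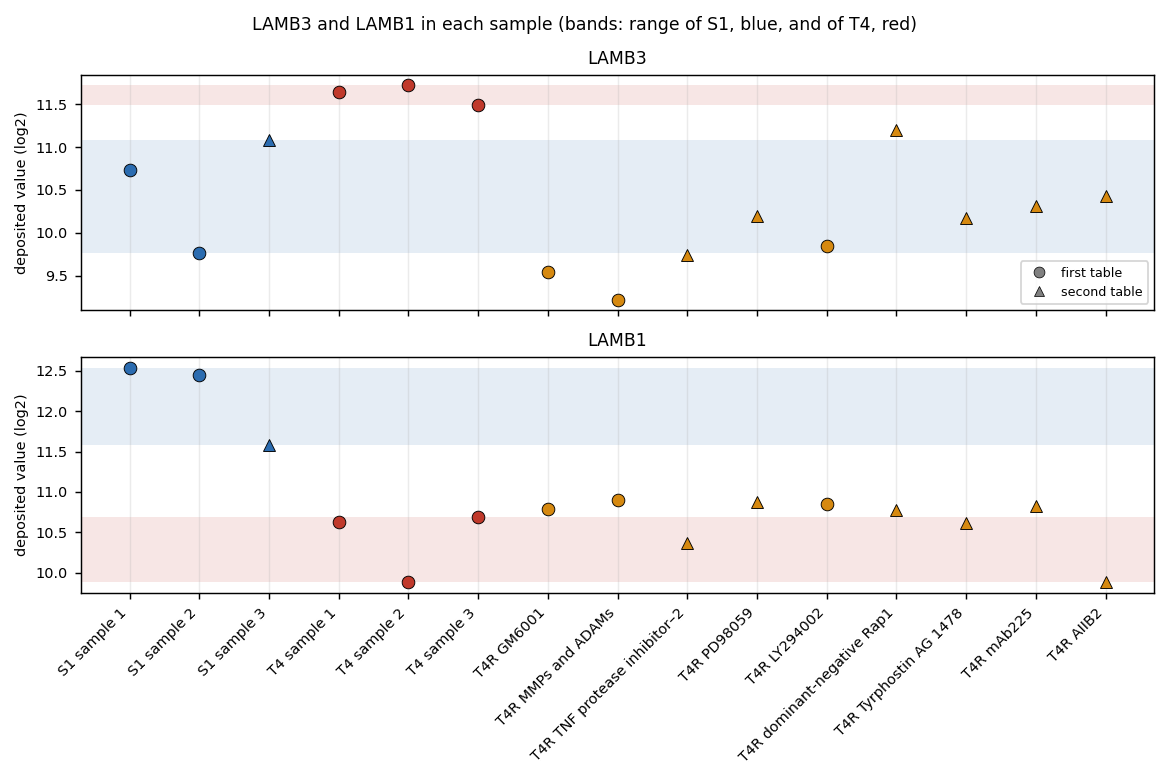
Deposited log2 value (vertical axis) of LAMB3 (top) and LAMB1 (bottom) in each of the 15 samples; circles are samples of the first table and triangles of the second, and the shaded bands span the S1 samples (blue) and the T4 samples (red). All 9 T4R samples lie below the T4 band for LAMB3 and below the S1 band for LAMB1.

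LAMB1 codes for the β1 chain, a common partner of the α5 and γ1 chains. Its log2 values in S1 were 12.53, 12.44 and 11.58, and in T4 they were 10.62, 9.89 and 10.69. S1 and T4 did not overlap, although S1 sample 3 was lower than the other S1 samples. The fitted difference was -1.93 ± 0.27 (log2, SE), or 3.82-fold lower in T4, with an adjusted p of 0.000181. With the agents, LAMB1 was 10.79 (GM6001), 10.90 (MMPs and ADAMs), 10.36 (TNF protease inhibitor–2), 10.88 (PD98059), 10.85 (LY294002), 10.77 (dominant-negative Rap1), 10.62 (Tyrphostin AG 1478), 10.83 (mAb225) and 9.88 (AIIB2). All 9 treated samples lay below the lowest S1 sample, and AIIB2 was the lowest of the 9.

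LAMB1 was thus 2.61-fold lower in T4R than in S1, with a fitted difference of -1.39 ± 0.22 (log2, SE) and an adjusted p of 0.000616. Of the 7 genes it alone passed this comparison, against 23.2% of all genes, with 11.8% higher and 11.4% lower. The difference was -1.65 within the first table. In the second table the mean of the 6 agents lay 1.02 below S1 sample 3 (mean 10.56 ± 0.38, SD, n = 6, against 11.58), and all 6 were below it. Between T4R and T4 the fitted difference was 0.55 ± 0.25 (log2, SE) and did not pass (adjusted p = 0.164), with a 95% interval of 0.01 to 1.08. A second LAMB1 probe set gave like differences, of -2.16 between T4 and S1 and -1.53 between T4R and S1. LAMB1 passed as lower in T4 in each of 29 alternative fits and as lower in T4R than S1 in each of 27.

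LAMB3 and LAMB1 carry the largest differences here, so the stretches just before their transcription start sites are shown. The sequences are RefSeq's (GRCh38.p14), each the 250 bases before a start site on the coding strand. Capitals mark matches to TGANTCA, where N is any base. This pattern takes in the site bound by AP-1, a family of transcription factors that act below ERK signalling, but is wider than that site. LAMB3 has 3 start sites in that table, and start site 3, at chr1:209651375-209651624 (minus strand), is the one with a match, TGACTCA, which begins 67 bases before the start. The LAMB1 stretch lies at chr7:108003162-108003411 (minus strand).
LAMB3: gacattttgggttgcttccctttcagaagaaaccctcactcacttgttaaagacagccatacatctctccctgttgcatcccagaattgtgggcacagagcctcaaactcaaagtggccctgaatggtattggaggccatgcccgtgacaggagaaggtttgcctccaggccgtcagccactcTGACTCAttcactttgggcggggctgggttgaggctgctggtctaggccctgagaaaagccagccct
LAMB1: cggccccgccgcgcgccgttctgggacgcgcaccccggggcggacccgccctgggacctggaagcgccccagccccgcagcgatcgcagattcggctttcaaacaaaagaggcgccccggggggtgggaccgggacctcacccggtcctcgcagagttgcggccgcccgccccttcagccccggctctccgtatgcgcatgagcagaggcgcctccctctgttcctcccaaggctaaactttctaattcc
The LAMB1 stretch has no match to TGANTCA and is rich in G and C (70.4%, against 54.0% for the LAMB3 stretch shown and 64.0% and 60.0% for those of its other start sites). It has 4 matches to the GC box GGGCGG on either strand, against 1 in each LAMB3 stretch. Of the 10 start sites of the 8 genes with a probe set, 1 had a TGANTCA match in the 250 bases, and 6.57% of all 35116 such stretches had one. The GC box was found in 42.6% of all stretches. A match is a run of letters and no evidence of binding.

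LAMA5, LAMC1 and LAMB2 code for the α5, γ1 and β2 chains, which assemble with one another and, for α5 and γ1, with β1. The log2 values of LAMC1 were 10.40, 10.21 and 10.33 in S1, 9.64, 9.72 and 9.48 in T4, and 9.55 to 10.56 in T4R (median 10.12). S1 and T4 did not overlap, and 8 of the 9 T4R samples lay above the T4 mean, with AIIB2 below it, in the probe set used. The difference of T4 from S1 was -0.64 ± 0.20 (log2, SE; adjusted p = 0.0301), and that of T4R from T4 was 0.37 ± 0.19 and did not pass (adjusted p = 0.21). Without AIIB2 it was 0.39 with an adjusted p of 0.0475. The call of LAMC1 between T4 and S1 was lost without S1 sample 1 (adjusted p = 0.124), S1 sample 2 (0.0732), T4 sample 1 (0.0598) or T4 sample 3 (0.0887), without both samples numbered 3 (0.0804), and with the other LAMC1 probe set (0.14).

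LAMA5 had log2 values of 8.92, 8.67 and 9.42 in S1 and of 8.08, 8.18 and 7.98 in T4. The groups did not overlap, and the fitted difference was -0.59 ± 0.20 (log2, SE; adjusted p = 0.0436). This call was near the threshold: it held in 7 of the 15 fits that left out 1 sample. It was lost on leaving out S1 sample 1 (adjusted p = 0.202), S1 sample 2 (0.11), T4 sample 1 (0.0874), 2 (0.0615) or 3 (0.112), or the samples with GM6001 (0.0502), TNF protease inhibitor–2 (0.0558) or LY294002 (0.0569), and without both samples numbered 3 (0.0515). In T4R the values ran from 8.34 to 9.85 (median 9.30). The 3 agents of the first table lay between 8.34 and 8.50 and the 6 of the second between 9.06 and 9.85, so that the tables did not overlap and S1 sample 3 was likewise the highest of S1. With the table in the fit T4R exceeded T4 by 0.40 ± 0.19 (log2, SE), which did not pass (adjusted p = 0.172), and without it by 1.07 (adjusted p = 0.0352). Its difference from S1 was -0.18 ± 0.17 and also did not pass (adjusted p = 0.481), and without the table block its sign turned (0.15).

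For LAMB2 the log2 values were 9.18, 8.72 and 9.32 in S1, 8.51, 8.56 and 8.32 in T4 and 8.20 to 9.72 in T4R (median 9.07). S1 lay above T4 in every sample, but the fitted difference of -0.34 ± 0.24 (log2, SE) did not pass (adjusted p = 0.334). With both the replicate number and the table as blocks it was -0.41, with an adjusted p of 0.0438. That fit, of S1 and T4 alone, rests on samples 1 and 2 of each line. Leaving both samples numbered 3 out of the main fit gave the same -0.41 without passing (adjusted p = 0.311). In treated samples LAMB2 also separated by table, at 8.20 to 8.83 in the first and 8.98 to 9.72 in the second. T4R differed from T4 by 0.12 ± 0.22 and from S1 by -0.22 ± 0.20 (log2, SE), and neither passed (adjusted p = 0.781 and 0.479). The latter turned to 0.05 without the table block. The interval of the first, -0.36 to 0.60, leaves room for a change in either direction.

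NID1, the nidogen that passed the filter, was dim, with log2 values of 7.28, 7.20 and 7.08 in S1, 6.75, 7.0 and 6.86 in T4 and 6.80 to 7.47 in T4R (median 7.01). S1 lay above T4, by a fitted 0.29 with an SE of 0.15, without passing (difference -0.29, adjusted p = 0.173). It passed with the replicate number and the table as blocks (-0.37, adjusted p = 0.0367) and within the first table (-0.38, adjusted p = 0.0286). Leaving both samples numbered 3 out of the main fit gave the same -0.37 without passing (adjusted p = 0.134). The other NID1 probe set gave -0.68 for T4 against S1, which also passed when it stood for the gene (adjusted p = 0.0174). In T4R, the differences of NID1 from T4 and from S1 were 0.09 ± 0.14 and -0.19 ± 0.12 (log2, SE), and neither passed. With the probe set used, PD98059 had the highest NID1 value of all 15 samples, 7.47. In the other probe set it had 7.17, below S1 samples 1 and 2 (7.64 and 7.42), Tyrphostin AG 1478 (7.30) and mAb225 (7.34). NID2 lay between 6.67 and 6.91 in all samples, with group means of 6.84 ± 0.12 in S1, 6.73 ± 0.08 in T4 (SD, n = 3 each) and 6.74 ± 0.05 in T4R (SD, n = 9), and was not tested.

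HSPG2, perlecan, was higher in T4 than in S1. Its log2 values were 7.25, 7.09 and 7.68 in S1 and 8.36, 8.05 and 7.92 in T4, with no overlap. The fitted difference was 1.06 ± 0.23 (log2, SE), or 2.09-fold, with an adjusted p of 0.00353. Without the table block it was 0.77 and did not pass (adjusted p = 0.153), nor did it with the replicate number as a block and no table block (0.77, adjusted p = 0.0557). With agents, HSPG2 was 7.71 (GM6001), 7.43 (MMPs and ADAMs) and 7.31 (LY294002) in the first table, all below T4. In the second it was 8.18 (TNF protease inhibitor–2), 8.47 (PD98059), 8.88 (dominant-negative Rap1), 8.64 (Tyrphostin AG 1478), 8.71 (mAb225) and 7.95 (AIIB2), of which 4 lay above every T4 sample, and all 6 lay above S1 sample 3. The fitted difference of T4R from T4 was -0.55 ± 0.21 (log2, SE) and did not pass (adjusted p = 0.0979). Within the first table it was -0.63 and passed (adjusted p = 0.0277), whereas without the table block it turned to 0.03 or, with quantile normalization across tables, to 0.06. The direction of HSPG2 in treated cells therefore depends on how the array types are set against each other. Against S1, T4R was higher by 0.51 ± 0.19 (log2, SE), without passing (adjusted p = 0.0641), and passed without AIIB2 (0.55, adjusted p = 0.0284).

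**Figure D3:**
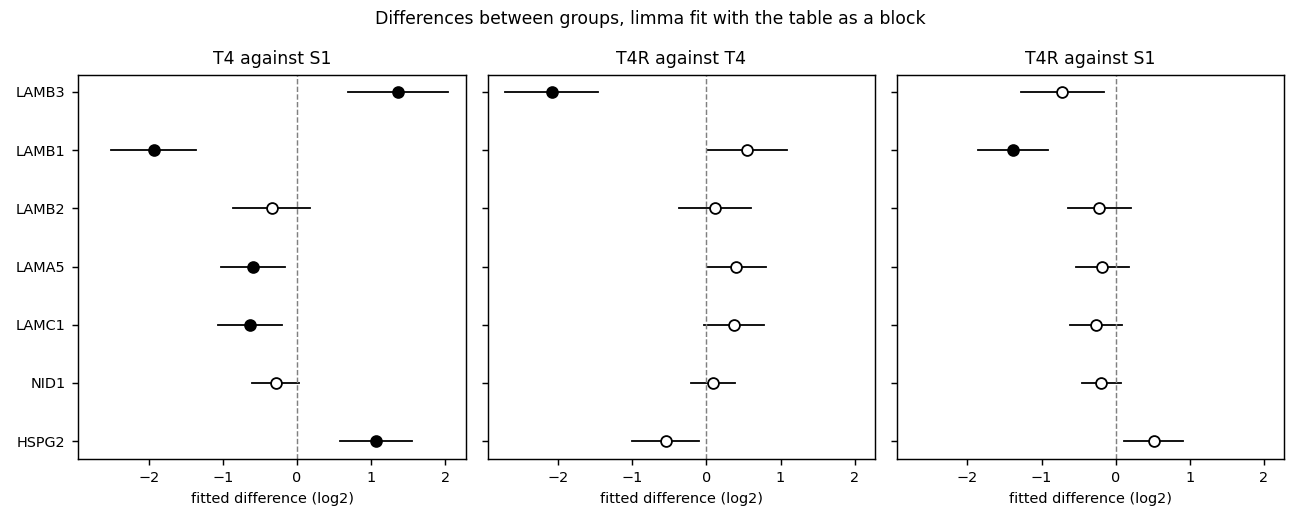
Fitted log2 difference (horizontal axis) of each gene in T4 against S1, T4R against T4 and T4R against S1, with its 95% confidence interval; filled points passed the test at an adjusted p of 0.05, open points did not. LAMB3 differs by 1.36 in the first panel and -2.09 in the second, and LAMB1 by -1.93 and 0.55, the last without passing.

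The probe sets of 1 gene did not always give the same picture. Both LAMB1 probe sets behaved alike. For LAMC1, the probe set used and the other one gave -0.64, which passed, and -0.43, which did not (adjusted p = 0.14 with that probe set in its place), between T4 and S1. Between T4R and T4 they gave 0.37 and -0.22, and neither passed. With the other LAMC1 probe set in place of the one used, T4R was lower than S1 by 0.65 (log2 difference -0.65, adjusted p = 0.0136). The other HSPG2 probe set lay between 6.82 and 7.54, near the filter's limit of 6.97, and differed by 0.05 between T4 and S1, so the HSPG2 results rest on 1 probe set.

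**Figure D4:**
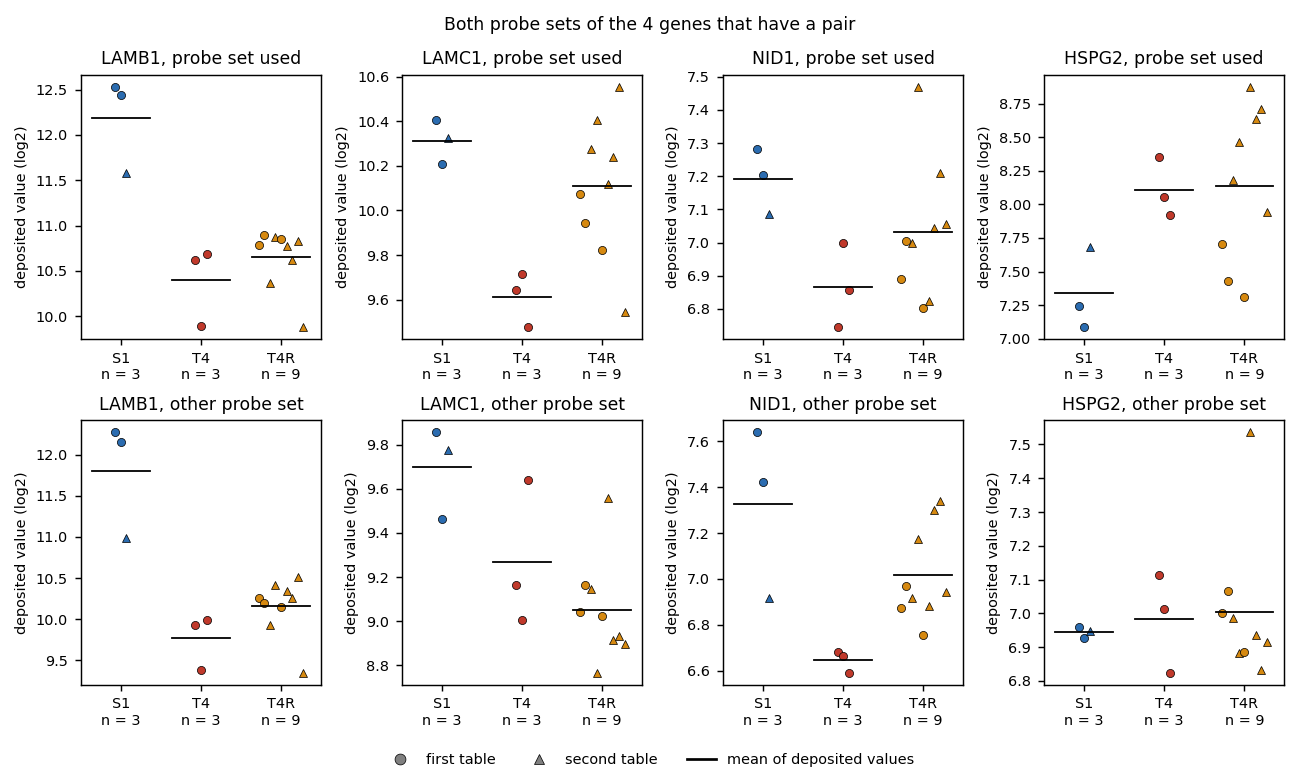
Deposited log2 value (vertical axis, own scale in each panel) in S1, T4 and T4R for the probe set used (top) and the other probe set (bottom) of LAMB1, LAMC1, NID1 and HSPG2; circles are samples of the first table, triangles of the second, bars are group means. The pairs are alike for LAMB1, and differ in T4R for LAMC1 and in T4 for HSPG2.

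Among the agents, each with 1 sample and so with no test, LAMB3 varied most in its distance from the T4 mean. With the table term removed this distance was -2.68 with TNF protease inhibitor–2, -2.40 with the inhibitor of MMPs and ADAMs and -2.08 with GM6001, the protease inhibitors. PD98059 gave -2.23 and LY294002 -1.77, against -1.23 with dominant-negative Rap1. The blockers of EGFR and β1-integrin lay close together, at -2.26 (Tyrphostin AG 1478), -2.12 (mAb225) and -2.0 (AIIB2). AIIB2 had the lowest adjusted value of the 9 for LAMA5, LAMB1, LAMC1 and HSPG2, at -0.01, -0.08, -0.25 and -1.03 from the T4 mean. For LAMA5, LAMB1 and LAMC1 the other 8 agents all lay above the T4 mean, by 0.23 to 0.77, 0.39 to 0.92 and 0.21 to 0.76. For LAMC1 this holds only for the probe set used. By deposited values of its other probe set, all agents but dominant-negative Rap1 (9.56) lay below the T4 mean of 9.27. There PD98059 was the lowest (8.77), and AIIB2 had 8.90. Dominant-negative Rap1 had the highest value of the 9 for LAMB3 and HSPG2 and the lowest for LAMB2 and NID1.

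**Figure D5:**
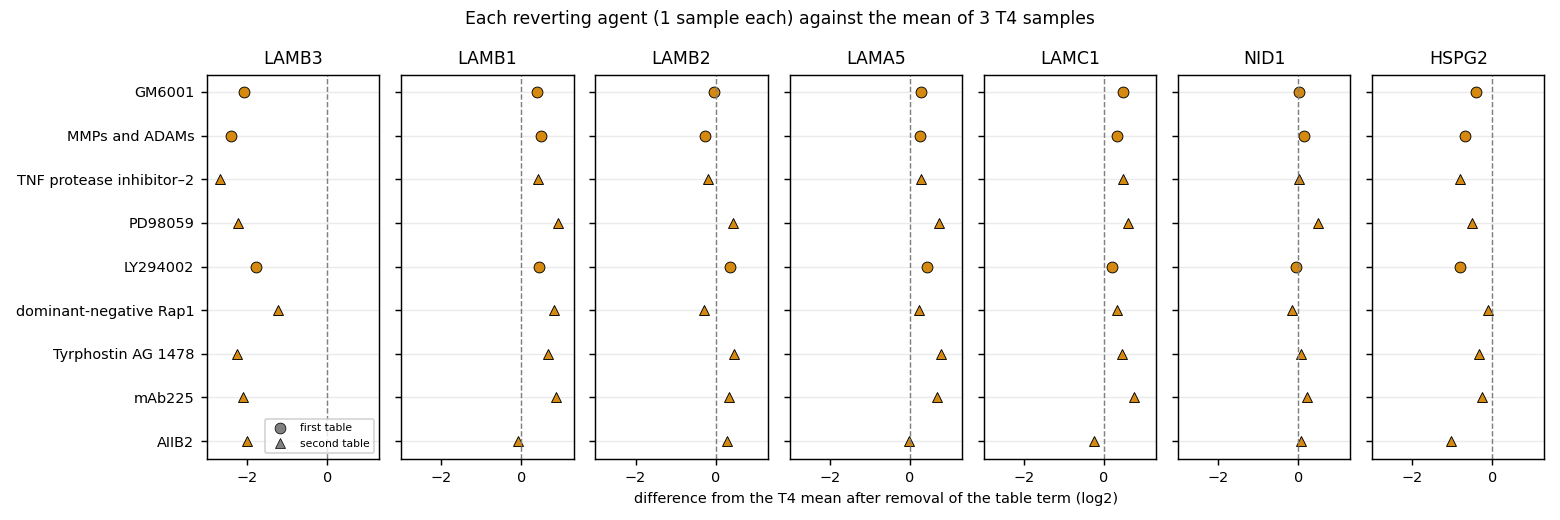
Difference of each agent's single sample from the mean of the 3 T4 samples (horizontal axis, log2) after removal of the table term, for each of the 7 genes; circles are agents of the first table and triangles of the second. All 9 agents lie left of 0 for LAMB3 and for HSPG2, and AIIB2 lies left of the others for LAMB1, LAMC1 and LAMA5. Each gene is shown by the probe set used, and the other LAMC1 probe set differs.

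The 9 agents were also compared as 3 classes of 3, by target: proteases, MAPK with PI3K and Rap1, and EGFR with β1-integrin. Dominant-negative Rap1 was placed from what is known of the study, since no label gives its class. None of the 7 genes passed limma's moderated F-test, and neither did any of the 9111 genes (0%), while 496 genes (5.44%) had an unadjusted p under 0.05 and array weights gave 18 genes with an adjusted one. LAMB2 was the one of the 7 genes with an unadjusted p under 0.05 (0.0172, adjusted p = 0.903), with the protease class 0.70 below the EGFR and β1-integrin class on the log2 scale (fitted difference -0.70, deposited means 8.56 ± 0.45 and 9.63 ± 0.09, SD, n = 3 each). For LAMB3 the adjusted p was 0.903 as well. Class and table overlap: all EGFR and β1-integrin samples were in the second table, but GM6001 and the inhibitor of MMPs and ADAMs were in the first. The deposited LAMB2 means therefore also carry the difference between tables, fitted at 0.81, and the fitted -0.70 rests on the table block.

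The genes most like LAMB3 across the 15 samples, by Pearson correlation after removal of the table term, were ECM1 (0.952), CAPN2 (0.944), FCMR (0.935), SLC38A2 (0.934) and FXYD5 (0.933). For LAMB1 they were NUDT4 (0.932), TRIM52 (0.928), INPP5A (0.925), WDR70 (0.919) and TNS2 (0.913). LAMC1 was most like FGF1 (0.917), DKFZP586I1420 (0.891), ZNF280D (0.887), ZCWPW1 (0.883) and TLK1 (0.879). Among the 7 genes themselves LAMA5 and LAMC1 had the highest correlation (0.864), followed by LAMB1 and LAMC1 (0.733), and LAMB3 with LAMB1 gave -0.182. The samples share their 3 groups and 2 array types, so these values describe the pattern over groups and carry no test.

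The other proteins that laminins, nidogens and perlecan work with were taken from a list of 62 genes, of which 52 had a probe set and 43 were tested. This list too was drawn up with earlier results of these data known, so its counts are no test of the set. Between T4 and S1, 9 were higher and 2 lower, and their median difference was 0.19 (log2). That is about the share of all genes that passed in this comparison (26.9%, with 14.6% higher and 12.3% lower). Both chains of the main collagen IV network, the scaffold to which nidogens tie the laminins, were higher: COL4A1 by 2.15 ± 0.25 and COL4A2 by 0.79 ± 0.23 (log2, SE; adjusted p = 4.63e-05 and 0.0197). So were PXDN, the peroxidase that cross-links collagen IV (1.44), LOXL2, a lysyl oxidase (2.68), and ADAMTS1, a matrix protease (1.83). Of the laminin receptors, ITGA6, the α6 subunit that binds laminin-332, was higher by 1.94 ± 0.35 (adjusted p = 0.00133), ITGA2 by 1.35 and ITGA3 by 0.86. ITGB4, the partner of α6 in hemidesmosomes, differed by 0.91 and did not pass (adjusted p = 0.053), and ITGB1 differed by 0.04. MMP14, a membrane-bound metalloproteinase, was lower by fit (-0.47, adjusted p = 0.00723). None of the 3 other laminin chains tested, LAMA1, LAMA2 and LAMA4, passed in any of the comparisons. They were dim, with group means of 6.94 to 7.17 near the filter's limit of 6.97, so little can be read from this.

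In T4R against T4, 2 of the 43 partners were higher and 10 lower, where 6.46% of all genes were higher and 8.44% lower. COL4A1 and COL4A2 fell, with log2 differences of -2.62 and -1.86 (adjusted p = 1.26e-05 and 0.000101), as did LOXL2 (-2.70), ITGA2 (-1.80), ADAMTS1 (-1.58), PXDN (-2.0) and PLAT, a plasminogen activator (-1.56). ITGA6 (-1.90, adjusted p = 0.00203) and ITGA3 (-0.86, adjusted p = 0.0242) fell too, whereas ITGB4 (-0.71, adjusted p = 0.142) and ITGB1 (0.01) did not pass. MATN2, a matrilin, rose by 2.44 (adjusted p = 0.000398), and DST, listed with the hemidesmosome genes, by 1.13 (adjusted p = 0.0411). These values share their T4 samples with those of T4 against S1, so the reversal of sign between the comparisons is not independent. In T4R against S1, 1 partner was higher and 4 were lower, where 11.8% of all genes were higher and 11.4% lower. MATN2 was higher by 2.67 ± 0.30, and COL4A2 (-1.06), PLAT (-1.33), PLEC, the plectin of hemidesmosomes (-0.97), and MMP14 (-0.41) were lower. PLEC and MMP14 were already lower in T4 than in S1 (-0.50 and -0.47, adjusted p = 0.0409 and 0.00723). COL4A1 differed from S1 by -0.47 and ITGA6, ITGA3, ITGB4 and ITGB1 did not pass either. DAG1 and COL17A1 had no probe set of their own and are not analysed here.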

How the data were processed

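Per the labels' protocols, total RNA was prepared with Trizol and biotin-labelled, and it was hybridised to Affymetrix U133A-type arrays. The deposited tables hold log2 values (6.21 to 14.5 over all samples). How they were summarised, background-corrected and normalized was not given in the sources used here. Precision is limited by the number of arrays. Of 22215 probe sets, 19707 had 1 gene in the annotations, 614 several, 1706 none and 188 a different gene in each annotation. Symbols were updated through NCBI's gene table. The probe set with the highest mean stood for its gene, the dimmest 25% of genes were left out, and 9111 were tested.

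A single limma fit (3.58.1, R 4.3.3; lmFit and eBayes) over 15 samples used the groups S1, T4 and T4R, with the table as a block. Tests were 2-sided with Benjamini-Hochberg adjustment and a threshold of 0.05. Group means and SDs are of deposited values, and differences and standard errors are fitted. Levels of different probe sets were not set against each other. Agents were compared with T4 after removal of the fitted table term. The script was tested on simulated data.

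S1 and T4 samples share numbers. Deviations of same-numbered samples from their group means correlated at 0.282, 0.315 and 0.391, so the numbers were treated as pairing in an alternative with a replicate block. With the table block as well, that fit rests on samples 1 and 2 of each line, since its terms absorb both samples numbered 3. The labels do not say what a number stands for, and S1 sample 1 correlated with T4 sample 2 at 0.314. Other alternatives changed the probe set per gene, the filter, the table block, the normalization, the samples and the array weights. Members and lists were chosen with earlier results of these data known. All listed genes were to be named, and of the list of partners at most 8 per comparison with the smallest p, with ITGA6, ITGB4, ITGA3, ITGB1, DAG1, COL17A1, COL4A1 and COL4A2 in any case. DST, and PLEC in T4 against S1, were named in addition. Promoter stretches came from RefSeq.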

Additional observations from a re-analysis of the deposited data

Results flagged for a closer look

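In 3 of the 12 probe sets, 1 of the 9 treated samples stood apart from the rest by Dixon's criterion, which flags about 1 in 20 groups by chance. None of the 3 is a probe set used to represent its gene. For the other LAMB1 probe set, AIIB2 was the lowest at 9.35 (log2), with a gap of 0.498 of the range, and it was also the lowest for the probe set used. Dominant-negative Rap1 was the highest for the other LAMC1 probe set, at 9.56 (gap of 0.498 of the range), and for the other HSPG2 probe set, at 7.54 (gap of 0.667 of the range).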

How the results depend on the processing

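LAMB3 in T4R against T4 and LAMB1 in T4 and in T4R against S1 kept their direction and passed in all alternatives run. LAMB3 and HSPG2 in T4 against S1 kept their direction in 29 of 29 alternatives and passed in 26. For T4 against S1, 5 of the 7 genes passed, and 2 did without the table block, 2 with quantile normalization across tables, 7 with the replicate block and the table block, 3 with the replicate block without the table block and 3 without both samples numbered 3. The fit with the replicate and table blocks rests on samples 1 and 2 of each line, so its count is no independent support. Leaving out 1 sample gave 3 to 5. For T4R against T4, 1 gene passed, and 2 did without the table block, 3 with quantile normalization across tables, 2 in the first table alone and 4 with array weights; leaving out 1 sample gave 1 to 2. For T4R against S1, 1 gene passed, and 2 did with the probe set of the largest interquartile range, with the mean of all probe sets, with the lower 50% of genes left out and in the first table alone, and 6 with array weights; leaving out 1 sample gave 1 to 2. Over all genes, array weights gave 4180 against 2452 for T4 against S1, 3160 against 1358 for T4R against T4 and 3854 against 2116 for T4R against S1. With the replicate block 3661 genes passed for T4 against S1 beside the table block, and 1784 without it. For the difference between classes 0 genes passed, and 18 did with array weights and 1 without both samples numbered 3; leaving out 1 sample gave 0 to 10. The cause of these differences was not tested. The class test was not run within the first table, which holds 1 agent of the MAPK, PI3K and Rap1 class and none of the EGFR and β1-integrin class. The lack of T4 samples in the second table, the single sample per agent and the lack of detection calls limit what can be read from single agents and dim probe sets.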
